A study of Homo sapiens with 16 samples.

Results

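Selenoproteins carry selenocysteine, an amino acid that is read from UGA, a codon that ends translation in other mRNAs. The 10 selenoprotein mRNAs described here were chosen by name, GPX1, GPX4, TXNRD1, TXNRD2, SELENOW, SELENOH, SELENOK, SELENOT, SELENOS and SEPHS2, and each was matched by its Ensembl identifier to 1 of the 58302 gene identifiers in the count data. All 10 passed the filter on low read counts in every comparison. The questions were how far these mRNAs were associated with polysomes and what happened to them when the RNA-binding protein Gemin5 was silenced.

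Recoding of UGA needs a stem-loop in the 3′ UTR, the selenocysteine insertion sequence (SECIS), the protein SECISBP2 that binds it, and a dedicated elongation factor (EEFSEC) that brings the selenocysteine tRNA to the ribosome. When selenium or these factors are scarce, the ribosome can stop at the UGA, and some selenoprotein mRNAs are then degraded by nonsense-mediated decay, which acts on stop codons lying well upstream of the last exon junction. Most of the proteins are redox enzymes. The glutathione peroxidases remove peroxides, the thioredoxin reductases keep thioredoxin reduced, several members sit in the membrane of the endoplasmic reticulum, and SEPHS2 makes the selenium donor for the pathway itself.

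The samples came from HEK293, an established human embryonic kidney line. Gemin5 was silenced with 100 nM of a small interfering RNA (siRNAG5), a short duplex that directs cleavage of a matching mRNA, and the Ctrl cells did not receive it. The sample labels call Ctrl cells untreated, whereas the treatment protocol and the study's methods name a control siRNA and the study expresses the silencing relative to it. Cytoplasmic lysates (Input) and pooled polysome fractions of sucrose gradients run in the presence of cycloheximide (Polysome) were prepared from 4 independent samples of each condition, and their polyadenylated RNA was sequenced, which gave 16 libraries, 4 in each of 4 groups. No member was a target of the siRNA, and 1 siRNA against Gemin5 was used.

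The stretch of coding sequence around the recoded UGA is given for each member, because this codon is what the 10 mRNAs share. The sequences are from GENCODE v44 transcripts on GRCh38, 5′ to 3′ in the sense of the mRNA, and the capitals mark the UGA, written TGA.
GPX1: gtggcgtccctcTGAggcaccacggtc
GPX4: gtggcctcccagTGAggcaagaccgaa
TXNRD1: caggctggctgcTGAggttaa
TXNRD2: gtgacaggctgcTGAgggtaa
SELENOW: tattgtggcgctTGAggctacaagtcc
SELENOH: cattgcactagcTGAcgcgtctatggg
SELENOK: atggctggtggaTGAggaaggtaa
SELENOT: atttgtgtttccTGAggttataggcgg
SELENOS: tcatctggcggaTGAggctaa
SEPHS2: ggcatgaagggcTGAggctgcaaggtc
The base after the UGA was G in 9 members and C in SELENOH. In TXNRD1, TXNRD2, SELENOK and SELENOS the window ended with the true stop codon, because the UGA was among the last 3 sense codons.

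The members fell into separate layouts. GPX1 (ENSG00000233276) has its UGA at codon 49 of 203 in exon 1 of 2, at chr3:49358132-49358134 on the minus strand, and GPX4 (ENSG00000167468) at codon 73 of 197 in exon 3 of 7, at chr19:1105403-1105405 on the plus strand. SELENOW (ENSG00000178980) has it at codon 13 of 87 in exon 2, at chr19:47780732-47780734, and SELENOH (ENSG00000211450) at codon 44 of 122 in exon 2, at chr11:57741816-57741818, both on the plus strand. SELENOT (ENSG00000198843) has it at codon 49 of 195 in exon 2, at chr3:150622392-150622394 on the plus strand, and the single-exon SEPHS2 (ENSG00000179918) at codon 60 of 448, at chr16:30445548-30445550 on the minus strand. In the other four the UGA comes at the end of the coding sequence. It is codon 648 of 649 in TXNRD1 (ENSG00000198431, chr12:104348413-104348415, plus strand), 523 of 524 in TXNRD2 (ENSG00000184470, chr22:19877111-19877113, minus strand), 92 of 94 in SELENOK (ENSG00000113811, chr3:53885831-53885833, minus strand) and 188 of 189 in SELENOS (ENSG00000131871, chr15:101272777-101272779, minus strand). The UGA lay more than 50 nt before the last exon junction in 6 members, by 105 nt in GPX1, 342 nt in GPX4, 71 nt in TXNRD2, 243 nt in SELENOW, 267 nt in SELENOH and 470 nt in SELENOT. It lay 5 nt before that junction in SELENOK, in the last exon in TXNRD1 and SELENOS, and SEPHS2 has no junction. The canonical transcripts were short, with a median of 1357.5 nt against 2900 nt over 19708 protein-coding genes, and their GC content had a median of 51.4% against 49.1%.

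**Figure D1:**
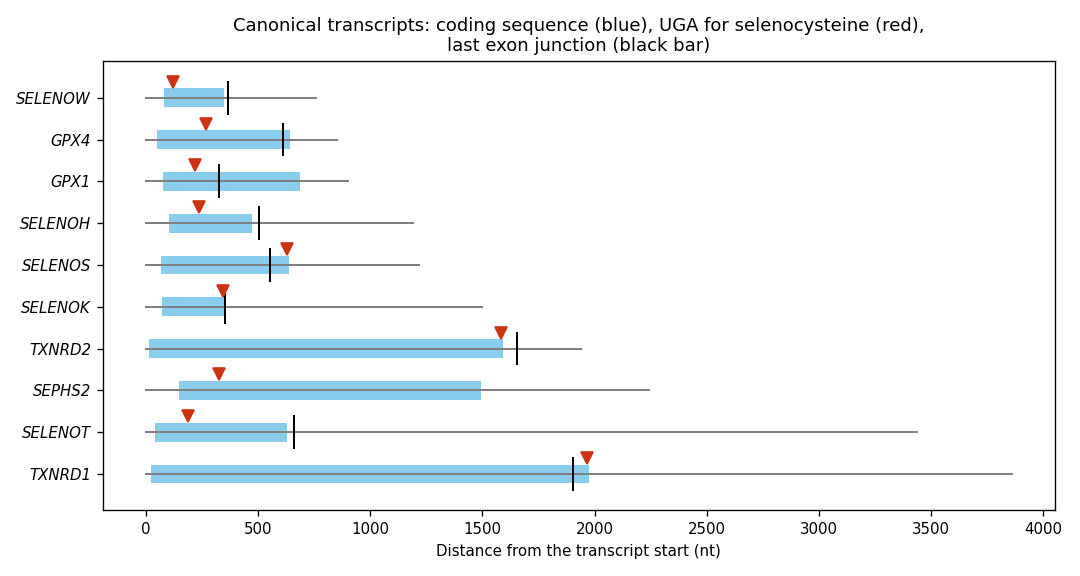
The canonical transcript of each member is drawn to scale from its start (x axis, nt), with the coding sequence in blue, the UGA for selenocysteine as a red triangle and the last exon junction as a black bar. In SELENOW, GPX4, GPX1, SELENOH, SELENOT and SEPHS2 the UGA sits early in the coding sequence, and in SELENOS, SELENOK, TXNRD2 and TXNRD1 it sits at its end.

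Reads counted on genes ranged from 11145324 to 24511299 per library, and no member had fewer than 338 reads in any library. Levels are given as CPM, read counts on genes scaled to a fixed library size with TMM factors over the 16 libraries. GEMIN5 was at 15.9, 18.9, 16 and 20.7 CPM in Input Ctrl and at 7.46, 6.51, 6.22 and 6.68 CPM in Input siRNAG5. In Polysome it was at 5.50, 7.21, 7.76 and 9.28 CPM in Ctrl and at 2.10, 3.08, 3.05 and 2.35 CPM in siRNAG5. The groups did not overlap in either fraction, and GEMIN5 fell by 1.40 on the log2 scale in Input (SE 0.12, adjusted p = 3.11e-10) and fell by 1.44 in Polysome (SE 0.21, adjusted p = 0.00477). Polysome Ctrl 1, siRNAG5 1 and siRNAG5 4 stood apart from the other Polysome libraries on the third principal component (8.26% of the variance), with scores of 35.3 to 38.5 against -26.3 to 2.16. This division is not in the labels, and results that rest on these 3 libraries are given with and without them. All 6 marker genes of HEK293 cells were detected in every library. Of 18 liver genes, none was at 0 in Polysome Ctrl, where they summed to 84.7 to 177 CPM, or in Input Ctrl 3 and 4, at 159 and 138 CPM, whereas they summed to 0.536 to 2.88 CPM in the other 10 libraries. Reads aligned to several places, which are not in these counts, made up 4.88 to 6.04% of an Input library and 21.2 to 42.4% of a Polysome library.

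The 10 mRNAs covered a wide range of levels in Input Ctrl, all in the upper part of the range of expressed genes. Divided by transcript length, GPX4, which reduces lipid hydroperoxides in membranes, stood first with a level of 1421 ± 48.4 CPM per kb (SD, n = 4), followed by GPX1, the main cytosolic glutathione peroxidase, with a level of 715 ± 55.2 CPM per kb. SELENOW was at a level of 165 ± 4.93 CPM per kb. SELENOK at 113 ± 4.05, SELENOS at 105 ± 10.1 and SELENOH at 91.9 ± 8.44 CPM per kb followed, and neighbours among these 3 overlapped between libraries. SEPHS2 was at a level of 77.5 ± 2.14, TXNRD2 at 34.3 ± 3.07, SELENOT at 17.3 ± 1.11 and TXNRD1 at 10.3 ± 0.81 CPM per kb. No other neighbours in this order overlapped. Among 11744 protein-coding genes the levels per kb lay between the 66.8th percentile (TXNRD1) and the 98.9th percentile (GPX4). The summed level of the 10 members was 2617 to 2891 CPM in Input Ctrl and 1902 to 2027 CPM in Input siRNAG5. In Polysome it was 1551 to 2215 CPM in Ctrl and 875 to 1529 CPM in siRNAG5, so the sums were separate in both fractions, narrowly in Polysome. The sum was mostly GPX4 and GPX1, with means of 1209 and 643 CPM in Input Ctrl against a mean sum of 2723 CPM. Taken singly, 3 of the 10 members were separate between treatments in Polysome.

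**Figure D2:**
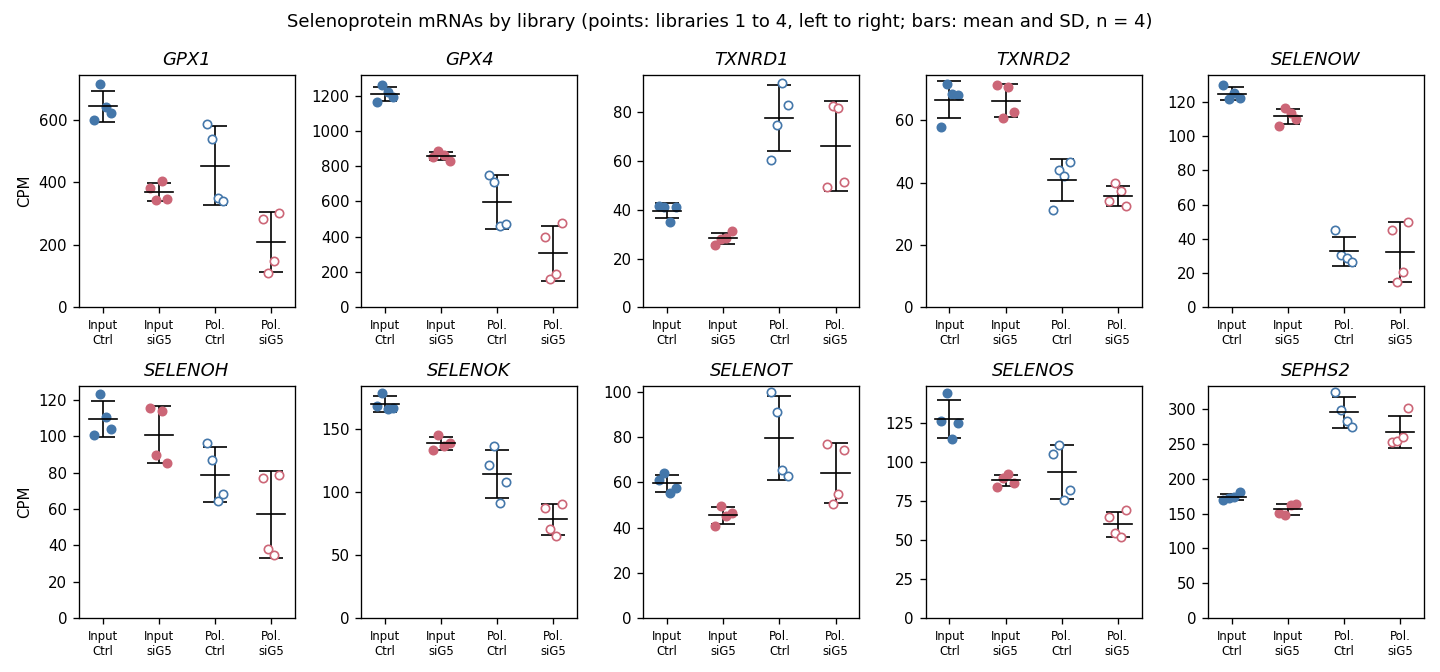
CPM of each member (y axis, linear from 0, a separate scale per panel) in the 4 libraries of each group, with filled points for Input, open points for Polysome (Pol.), blue for Ctrl and red for siRNAG5 (siG5), and bars for the mean and SD. In Input the red points of 8 members lie below all blue points, TXNRD2 and SELENOH being the exceptions, and in Polysome the siRNAG5 libraries of GPX1, GPX4, SELENOW and SELENOH split into a high and a low pair.

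Silencing of Gemin5 was accompanied by lower levels of most selenoprotein mRNAs in the mRNA pool. In 8 of the 10 members all 4 siRNAG5 Input libraries lay below all 4 Ctrl libraries, an arrangement found in 19.1% of the 14134 genes tested, and 6 members passed the adjusted p in the lower direction, against 19.1% of genes. With the limit on log2 FC of 0.5 added, 2 members were called lower (background 6.02%) and 0 higher (background 10.5%). The count of 0 was from edgeR, with 0 members higher at an unadjusted p under 0.05 and 0 by DESeq2. The median log2 FC was -0.33 over the members and 0.04 over all genes tested. In bulk RNA, fewer cells with an mRNA and less of it per cell cannot be told apart, and values are relative to the average mRNA of a library.

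Both glutathione peroxidase mRNAs were lower. GPX1 was at 598, 713, 639 and 622 CPM in Input Ctrl and at 382, 343, 403 and 347 CPM in Input siRNAG5. The highest silenced library lay far under the lowest control, and GPX1 fell by 0.79 on the log2 scale (SE 0.07, adjusted p = 4.17e-10), a call kept in 8 of 8 fits that left out 1 library. GPX4 was at 1165, 1262, 1218 and 1191 CPM in Ctrl and at 854, 884, 862 and 830.4 CPM in siRNAG5. These groups did not overlap either, but the log2 FC of -0.48 (SE 0.06, adjusted p = 1.20e-07) was short of the limit, which it passed without Input Ctrl 1 (-0.51). Reads of GPX1 can be shared with its processed pseudogenes: GPX1P1 and GPX1P2 together held 8.95% as many reads as GPX1 over the 16 libraries. For the pseudogenes of SELENOK and SELENOT the shares were 0.137% and 0.199%, and those of SELENOW and SEPHS2 held no reads.

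The 3 members of the endoplasmic reticulum membrane were lower by different amounts. SELENOS, which works in the retrotranslocation of misfolded proteins, was at 126, 144, 115 and 125 CPM in Input Ctrl and at 84.1, 89.4, 92.5 and 86.7 CPM in Input siRNAG5. The groups were well apart, and SELENOS fell by 0.52 on the log2 scale (SE 0.07, adjusted p = 1.29e-06). This lies close to the limit, and the call was lost without Input Ctrl 2 (-0.45) or without Input siRNAG5 1 (-0.50), which left 1 member called, and also with offsets for transcript length and GC content (-0.39). SELENOK, a partner of the palmitoyltransferase ZDHHC6, was at 168, 178, 166 and 166 CPM in Ctrl and at 133, 145, 137 and 139 CPM in siRNAG5. SELENOT, a thioredoxin-like oxidoreductase, was at 61.0, 64.1, 55.5 and 57.4 CPM in Ctrl and at 40.7, 49.5, 44.97 and 46.3 CPM in siRNAG5. In both genes the groups did not overlap, and the log2 FC of -0.28 (SE 0.06, adjusted p = 0.000809) for SELENOK and -0.38 (SE 0.08, adjusted p = 0.000294) for SELENOT passed the adjusted p but not the limit on size.

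The thioredoxin reductases differed from each other. The cytosolic TXNRD1 was at 41.5, 41.2, 34.9 and 40.9 CPM in Input Ctrl and at 25.4, 28.0, 28.3 and 31.1 CPM in Input siRNAG5, without overlap, with a log2 FC of -0.47 (SE 0.09, adjusted p = 6.62e-05). It passed the limit on size without Input Ctrl 3 and without Input siRNAG5 4 (-0.53 in each), and with offsets for length and GC content (-0.50), where GPX1 and TXNRD1 were the 2 members called. The mitochondrial TXNRD2 was at 58.0, 71.7, 68.5 and 68.3 CPM in Ctrl and at 71.3, 60.7, 70.8 and 62.7 CPM in siRNAG5. These values overlapped throughout, and the log2 FC was 0.01 (SE 0.08, adjusted p = 0.965), a sign that turned under several alternatives. SEPHS2 was at 169, 172, 174 and 181 CPM in Ctrl and at 151, 147, 162 and 163 CPM in siRNAG5. Its groups did not overlap, but the difference was small and missed the adjusted p (log2 FC -0.14, SE 0.06, adjusted p = 0.0765).

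The small thioredoxin-fold members SELENOW, a cytosolic protein, and SELENOH, a nucleolar one, were, with TXNRD2 and SEPHS2, those with the smallest differences. SELENOW was at 130.0, 122, 125 and 122 CPM in Input Ctrl and at 106, 117, 113 and 110.0 CPM in Input siRNAG5, which did not overlap, with a log2 FC of -0.15 (SE 0.06, adjusted p = 0.0650). SELENOH was at 101, 123, 111 and 104 CPM in Ctrl and at 115, 89.4, 114 and 85.4 CPM in siRNAG5. Its silenced libraries lay on both sides of the controls, and the log2 FC was -0.11 (SE 0.09, adjusted p = 0.348). The liver genes moved with treatment in this fraction in Input Ctrl 3 and 4 only. In Input Ctrl 1 and 2, 12 and 13 of the 18 liver genes were at 0, and GPX1 was at 598 and 713 CPM there against 639 and 622 CPM in Input Ctrl 3 and 4. The part of the liver genes in the Input differences was not tested.

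In Polysome 1 member passed the test after silencing, and the libraries varied far more than in Input. The median log2 FC was -0.36 over the members and 0.03 over all 14420 genes tested, and the fitted log2 FC was negative in 9 of 10 members. SELENOS was called lower, 1 of 10 against a background of 4%, and 0 members were called higher against 3.95% (edgeR, with 0 higher at an unadjusted p under 0.05 and 0 by DESeq2). GPX1, SELENOK and SELENOS had every silenced library under every control, 3 of 10 members against 10% of genes. All 4 Polysome Ctrl libraries held liver genes and no Polysome siRNAG5 library summed above 1.06 CPM of them, and the part of this in the differences was not tested.

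GPX1 was at 584, 539, 348 and 340.4 CPM in Polysome Ctrl and at 281, 108, 148 and 301 CPM in Polysome siRNAG5. Every silenced library was below every control, with 2 controls high and 2 silenced libraries very low, and the log2 FC of -1.08 (SE 0.32) did not pass (adjusted p = 0.0587). GPX4 was at 747, 713, 459.7 and 469.9 CPM in Ctrl and at 397, 162, 188 and 480.3 CPM in siRNAG5. The highest silenced library lay just above the 2 lower controls, and the log2 FC was -0.93 (SE 0.34, adjusted p = 0.102). SELENOS was at 105, 111, 75.7 and 81.8 CPM in Ctrl and at 64.8, 54.3, 52.1 and 69.0 CPM in siRNAG5. SELENOS fell by 0.60 on the log2 scale (SE 0.17, adjusted p = 0.0487). SELENOK was at 121, 137, 91.5 and 108 CPM in Ctrl and at 87.2, 70.2, 64.7 and 90.5 CPM in siRNAG5, where the top silenced library came within about 1 CPM of the lowest control (log2 FC -0.51, SE 0.17, adjusted p = 0.0774).

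These Polysome calls depended on single libraries. The count of members called lower was 0 without Polysome Ctrl 1, Ctrl 2, Ctrl 4, siRNAG5 1, siRNAG5 2 or siRNAG5 3, where SELENOS had an adjusted p of 0.0609 to 0.163. It was 1 without Ctrl 3 and 3 without siRNAG5 4, where GPX1 (-1.30, adjusted p = 0.0361) and GPX4 (-1.22, adjusted p = 0.0403) joined SELENOS. The genes called lower among all tested moved as well, from 113 without Ctrl 2 to 836 without siRNAG5 4, against 577 with all 8 libraries. DESeq2 on the same libraries called 4 members lower, GPX1, GPX4, SELENOK and SELENOS, against a background of 7.64%.

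The other 6 members overlapped between treatments in Polysome. SELENOH was at 96.4, 86.9, 64.2 and 68.2 CPM in Ctrl and at 77.2, 37.8, 34.7 and 78.7 CPM in siRNAG5 (log2 FC -0.43, SE 0.27, adjusted p = 0.326). SELENOT was at 99.8, 90.9, 65.2 and 62.7 CPM in Ctrl and at 76.8, 50.5, 55.1 and 74.3 CPM in siRNAG5 (log2 FC -0.28, SE 0.20, adjusted p = 0.399). Both showed a higher and a lower pair of libraries in each treatment. SELENOW was at 45.1, 30.4, 28.9 and 26.6 CPM in Ctrl and at 45.5, 14.6, 20.6 and 49.6 CPM in siRNAG5, so silenced libraries were both the lowest and the highest of the fraction (log2 FC 0.02, SE 0.35, adjusted p = 0.978). TXNRD1 was at 60.1, 74.9, 91.9 and 82.8 CPM in Ctrl and at 49.1, 82.3, 81.7 and 51.4 CPM in siRNAG5 (log2 FC -0.18, SE 0.20, adjusted p = 0.600). TXNRD2 was at 31.3, 44.2, 42.0 and 46.5 CPM in Ctrl and at 34.0, 39.8, 37.2 and 32.6 CPM in siRNAG5 (log2 FC -0.15, SE 0.15, adjusted p = 0.546). In these reductases the higher pair of silenced libraries was the pair that was low in GPX1 and GPX4. SEPHS2 was at 325, 299, 283 and 275 CPM in Ctrl and at 253, 255, 260.0 and 302 CPM in siRNAG5 (log2 FC -0.11, SE 0.14, adjusted p = 0.672).

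**Figure D3:**
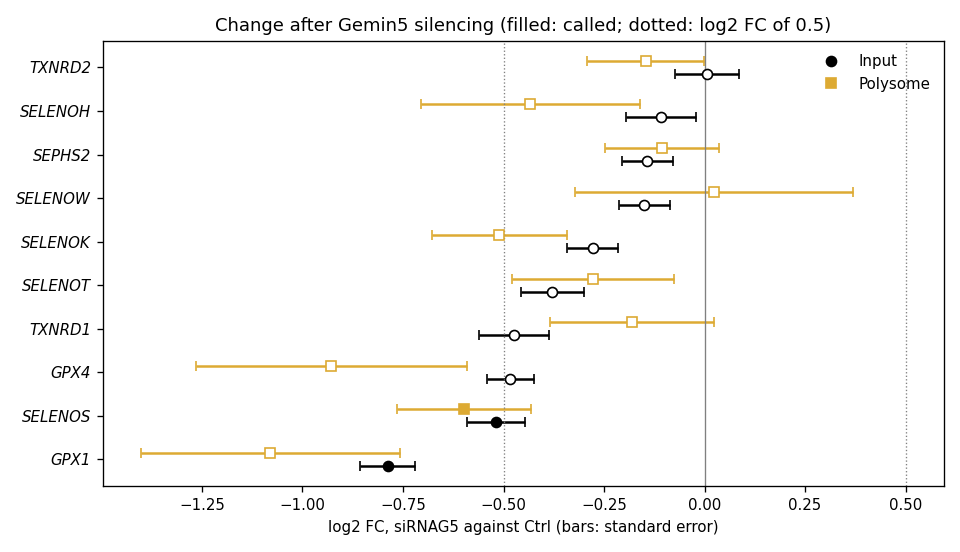
The log2 FC of siRNAG5 against Ctrl (x axis) with its standard error is shown for each member in Input (circles) and Polysome (squares), filled where called, with dotted lines at the limit of 0.5. The Input errors are small, with GPX1 and SELENOS called, and the Polysome errors of GPX1, GPX4, SELENOW and SELENOH are the widest.

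Among the silenced Polysome libraries the spread ran along the division described above, whereas among the controls Ctrl 2, which is outside the set of 3, was close to Ctrl 1 in GPX1, GPX4 and SELENOT. In siRNAG5 1 and 4 the mean CPM was 2.70 times that in siRNAG5 2 and 3 for SELENOW, 2.5 times for GPX4, 2.27 times for GPX1 and 2.15 times for SELENOH. The ratio was 1.43 for SELENOT, 1.32 for SELENOK, 1.26 for SELENOS and 1.08 for SEPHS2, and it was under 1 in the reductases, at 0.866 for TXNRD2 and 0.613 for TXNRD1. The set of 3 was picked by its scores in these same data, so a fit without it is not separate support. Left without Polysome Ctrl 1, siRNAG5 1 and siRNAG5 4, the comparison of 3 Ctrl with 2 siRNAG5 libraries called 6 members lower against a background of 12.1%. These were GPX1 (-1.62, SE 0.24, adjusted p = 0.00152), GPX4 (-1.59, SE 0.23, adjusted p = 0.00144), SELENOH (-0.96), SELENOS (-0.70), SELENOK (-0.68) and SELENOW, which turned from 0.02 to -0.65 (SE 0.17, adjusted p = 0.0151). TXNRD1 turned from -0.18 to 0.04. With all 8 libraries and the set of 3 as a term in the model, a fit chosen after seeing the data, 5 members were called lower against 12%, GPX1 (-1.40), GPX4 (-1.30), SELENOH (-0.72), SELENOS (-0.68) and SELENOK (-0.59), and SELENOW was at -0.39. Within the set of 3 there was 1 Ctrl library, which had 584 CPM of GPX1 against 281 and 301 CPM, 747 CPM of GPX4 against 397 and 480.3 CPM, and 45.1 CPM of SELENOW against 45.5 and 49.6 CPM in the silenced libraries. What divides the libraries was not tested.

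**Figure D4:**
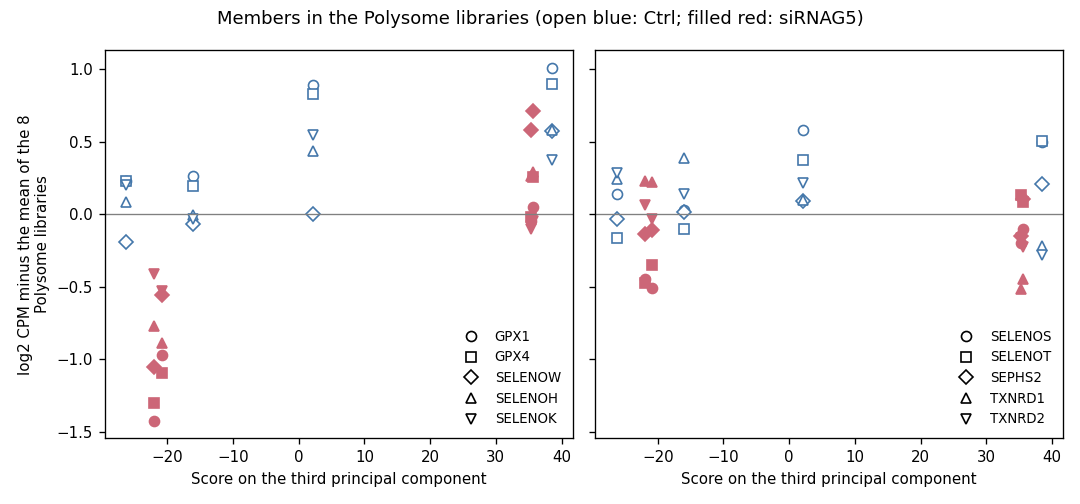
Each point is 1 Polysome library of 1 member, placed by the score of the library on the third principal component (x axis) and by its log2 CPM minus the mean of the 8 Polysome libraries (y axis), with open blue symbols for Ctrl and filled red symbols for siRNAG5. In the left panel the members in siRNAG5 2 and 3 lie at the bottom left and those in siRNAG5 1 and 4 near or above 0 on the right, whereas TXNRD1 in the right panel slopes the other way.

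Polysome loading, the log2 level in Polysome minus that in Input, separated the members more clearly than silencing did. In Ctrl cells 4 members were called lower in Polysome (background 18.8%) and 2 higher (background 20.8%), and Polysome and Input libraries did not overlap in 9 of 10 members, SELENOT being the exception, against 44.4% of genes. The median was -0.47 over the members and -0.03 over all 13666 genes tested. Loading is relative to the average mRNA and does not give the share of an mRNA that is on ribosomes.

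SELENOW had the lowest loading, at -1.47, -2.04, -2.11 and -2.23 in the 4 Polysome Ctrl libraries against the mean of Input Ctrl. All were far below 0, and the loading was -1.92 (SE 0.15, adjusted p = 1.85e-07), at percentile 1.01 of all genes tested. GPX4 was at -0.69, -0.76, -1.39 and -1.36, a loading of -1.002 (SE 0.17, adjusted p = 0.000211). TXNRD2 was at -1.08, -0.59, -0.66 and -0.51, a loading of -0.69 (SE 0.13, adjusted p = 0.000455). SELENOK was at -0.48, -0.31, -0.89 and -0.65, a loading of -0.55 (SE 0.13, adjusted p = 0.00256), and its call was lost without Polysome Ctrl 3 (-0.44). On the other side stood TXNRD1, at 0.60, 0.92, 1.22 and 1.07, a loading of 0.98 (SE 0.13, adjusted p = 2.20e-05), and SEPHS2, at 0.90, 0.78, 0.70 and 0.66, a loading of 0.78 (SE 0.12, adjusted p = 5.44e-05). All 4 Polysome libraries of each were above all Input libraries.

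All 10 members passed the adjusted p in Ctrl, 7 lower (background 23.2%) and 3 higher (background 24.3%), and in 4 of them the loading was within the limit on size. GPX1 had a loading of -0.49 (SE 0.18, adjusted p = 0.0332), SELENOH of -0.46 (SE 0.14, adjusted p = 0.0138), SELENOS of -0.44 (SE 0.14, adjusted p = 0.0175) and SELENOT of 0.43 (SE 0.15, adjusted p = 0.0260). GPX1, SELENOH and SELENOS were all called without Polysome Ctrl 1 (-0.64, -0.58 and -0.50) and without Polysome Ctrl 2 (-0.60, -0.52 and -0.54), which brought the members called lower to 7 in each case. The background was 19.8% without Polysome Ctrl 1, and with any 1 library left out 2309 to 2752 of all genes were called lower. With the replicate number as a block GPX1 was called as well (-0.53, adjusted p = 0.0147). SELENOH was also called without Input Ctrl 1 (-0.50), and SELENOT without Polysome Ctrl 3 (0.53) or Ctrl 4 (0.54).

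In siRNAG5 cells, which share no library with the Ctrl comparison, 6 members were called lower in Polysome (background 21.2%) and 3 higher (background 23.9%), and all 10 had no overlap between fractions, against 50.4% of 14795 genes. The median was -0.74 over the members and -0.04 over all genes. SELENOW was at -1.29, -2.93, -2.44 and -1.17, a loading of -1.71 (SE 0.31, adjusted p = 0.000635). GPX4 was at -1.11, -2.40, -2.19 and -0.84, a loading of -1.41 (SE 0.29, adjusted p = 0.00145). Both were below 0 in every library, with libraries 2 and 3 lowest. SELENOK had a loading of -0.75 (SE 0.12, adjusted p = 0.000283) and TXNRD2 of -0.80 (SE 0.11, adjusted p = 0.000116). GPX1 was at -0.39, -1.76, -1.31 and -0.29, a loading of -0.74 (SE 0.26, adjusted p = 0.0311), and its call was lost without any 1 of the 4 Input libraries or without Polysome siRNAG5 3 (adjusted p 0.0510 to 0.0737). SELENOH was at -0.37, -1.40, -1.53 and -0.35, a loading of -0.75 (SE 0.25, adjusted p = 0.0230), and its call was lost without Input siRNAG5 1 (-0.68, adjusted p = 0.0692) or Input siRNAG5 3 (-0.69, adjusted p = 0.0620).

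TXNRD1 was at 0.80, 1.55, 1.54 and 0.87, the highest loading among the members at 1.32 (SE 0.19, adjusted p = 0.000119). SEPHS2 was at 0.70, 0.71, 0.74 and 0.95, a loading of 0.86 (SE 0.11, adjusted p = 4.09e-05). SELENOT was at 0.76, 0.16, 0.28 and 0.72, a loading of 0.58 (SE 0.14, adjusted p = 0.00475), and was not called without Polysome siRNAG5 1 (0.49). SELENOS, at -0.47 (SE 0.11, adjusted p = 0.00347), was within the limit on size, which it passed without Input siRNAG5 1, Polysome siRNAG5 1 or Polysome siRNAG5 4 (-0.50 to -0.51). Without Polysome siRNAG5 1 and 4, GPX1 was at -1.34, GPX4 at -2.11, SELENOH at -1.30, SELENOW at -2.49 and TXNRD1 at 1.71, with 7 members called lower (background 23.5%) and 2 higher (background 29.7%), SELENOT being at 0.40.

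**Figure D5:**
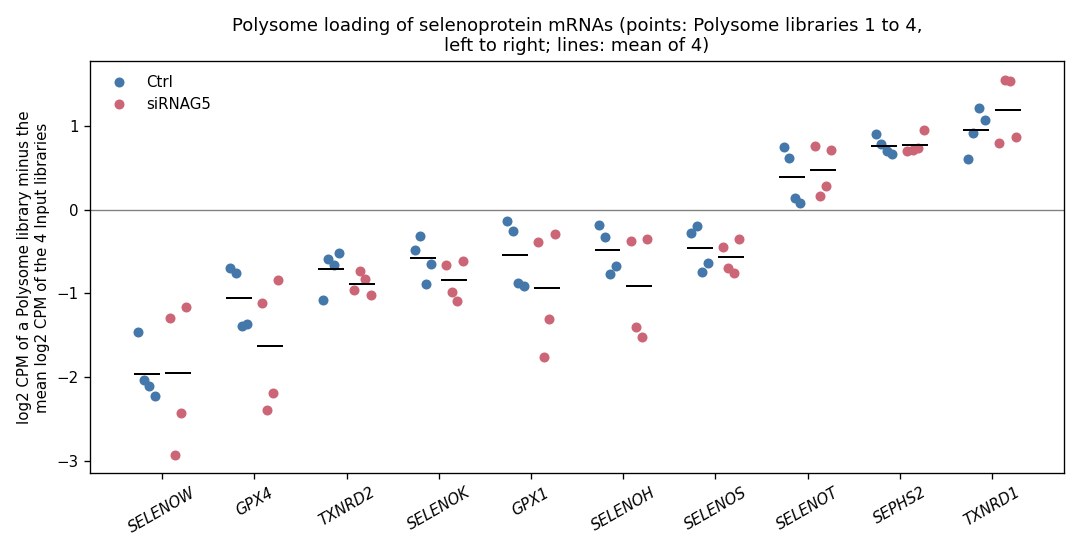
Loading of each member in the single Polysome libraries (points; y axis, log2 CPM minus the mean log2 CPM of the 4 Input libraries of the same treatment), blue for Ctrl and red for siRNAG5, with lines for the mean of 4, ordered by the loading in Ctrl. SELENOW is lowest in both treatments, TXNRD1, SEPHS2 and SELENOT lie above 0, and the red points of SELENOW, GPX4, GPX1 and SELENOH split into a higher and a lower pair.

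Loading was set beside the layout of the transcripts as a description. The 5 members with a transcript under 1300 nt, GPX1, GPX4, SELENOW, SELENOH and SELENOS, had loadings of -1.92 to -0.44 in Ctrl and of -1.71 to -0.47 in siRNAG5, and the other five, of longer transcripts, ranged from -0.69 to 0.98 and from -0.80 to 1.32. Over all protein-coding genes tested in Ctrl, the median loading in Ctrl was -0.22 for 1157 genes under 1300 nt and 0.08 for 10587 longer ones. In siRNAG5, where some of these genes were not tested, it was -0.36 and 0.10. With offsets for transcript length and GC content in each library, 2 members were called lower in Ctrl (background 18.8%), SELENOW (-1.48) and GPX4 (-0.56), and 3 in siRNAG5 (background 21.8%), SELENOW (-1.17), GPX4 (-0.82) and SELENOK (-0.72). GPX1 then had a loading of -0.06 in Ctrl and -0.15 in siRNAG5, and SELENOT of 0.13 and 0.01. TXNRD1 (0.76 and 0.98) and SEPHS2 (0.91 and 1.002) were called higher with the offsets as well, against 18.5% of genes in Ctrl and 21.4% in siRNAG5. The 6 members whose UGA lies more than 50 nt before the last junction had a median loading of -0.59 in Ctrl (range -1.92 to 0.43), and the other 4 had 0.17 (range -0.55 to 0.98). This 0.17 lies between a low pair, SELENOK (-0.55) and SELENOS (-0.44), and a high pair, SEPHS2 (0.78) and TXNRD1 (0.98). In siRNAG5 the medians were -0.77 (range -1.71 to 0.58) and 0.19 (range -0.75 to 1.32). The ranges overlapped in both treatments, and 4 of the 6 members with the earlier UGA are also short. The 4 members with the UGA among the last 3 sense codons had a median of -0.50 in Ctrl, and the 6 with an earlier UGA had -0.47.

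Whether silencing changed the loading was tested as the difference between treatments over all 16 libraries. No member was called lower or higher (edgeR, 0 of 10, background 0% in each direction), with 0 members at an unadjusted p under 0.05 and 0 called by DESeq2. The values ran from -0.47 for GPX4 (SE 0.36, adjusted p = 0.834) to 0.26 for TXNRD1 (SE 0.23, adjusted p = 0.877). Between them lay SELENOH at -0.35 (SE 0.31), GPX1 at -0.31 (SE 0.35), SELENOK at -0.26 (SE 0.18), TXNRD2 at -0.19 (SE 0.17), SELENOS at -0.10 (SE 0.18), SEPHS2 at 0.01 (SE 0.14), SELENOT at 0.08 (SE 0.22) and SELENOW at 0.15 (SE 0.37). The median was -0.15 over the members and -0.06 over 14958 genes. Leaving out 1 library at a time called no member in 16 of 16 fits. Polysome Ctrl 1, siRNAG5 1 and siRNAG5 4 were picked by their principal component scores in these same data. Of the silenced libraries, siRNAG5 1 and 4 were the higher pair for GPX1, GPX4, SELENOW and SELENOH, so a fit without them is not separate support. Without these 3 libraries the errors were smaller and 4 members were called lower against a background of 4.3%. They were GPX4 (-1.13, SE 0.19, adjusted p = 0.000995), SELENOH (-0.88, SE 0.18, adjusted p = 0.00546), GPX1 (-0.86, SE 0.21, adjusted p = 0.0162) and SELENOW (-0.53, SE 0.15, adjusted p = 0.0402), and TXNRD1 was at 0.48 (SE 0.14, adjusted p = 0.0439). With the set of 3 as a term only GPX4 was called (-0.84, SE 0.21, adjusted p = 0.0271), against a background of 1.99%.

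Of the other 15 human selenoprotein genes, 9 had enough reads to be tested. MSRB1, a methionine sulfoxide reductase, was the only one called after silencing, 1 of 9 in Input (background 6.02%) and 1 of 9 in Polysome (background 4%). It was at 104, 127, 117 and 107 CPM in Input Ctrl and at 65.9, 66.6, 71.6 and 75.1 CPM in Input siRNAG5, and fell by 0.69 on the log2 scale (SE 0.07, adjusted p = 2.25e-08). In Polysome it was at 158, 138, 105 and 109 CPM in Ctrl and at 72.0, 49.7, 58.5 and 94.6 CPM in siRNAG5, and fell by 0.86 (SE 0.21, adjusted p = 0.0345). For this gene and the genes of the lists below, Polysome calls are given from the edgeR fit of all Polysome libraries only. How far they depend on single libraries is not given. SELENOM, of the endoplasmic reticulum, had a log2 FC of -0.43 in Input (adjusted p = 3.46e-06) and -0.76 in Polysome (adjusted p = 0.0964). SELENOO and SELENON had a log2 FC of 0.41 each in Input (adjusted p = 0.000617 and 0.0188), inside the limit on size, so the family did not move as one. The median of the 9 was -0.14 in Input and -0.09 in Polysome. In loading SELENOO, a mitochondrial protein, was called lower in Ctrl (-1.03) and siRNAG5 (-1.23), SELENON was called higher in Ctrl (0.57) and SELENOP, the secreted selenium carrier, higher in siRNAG5 (0.75). Each was 1 of 9, against backgrounds of 18.8% lower and 20.8% higher in Ctrl and 21.2% lower and 23.9% higher in siRNAG5. GPX2 had 5 reads in Input Ctrl 4 and 1 to 5 reads in each Polysome Ctrl library, all of which held liver genes. It had 0 in the other 11, among them Input Ctrl 3, where the liver genes summed to 159 CPM. A link between GPX2 and the liver genes was not tested. GPX6, DIO1, DIO2, DIO3 and SELENOV had 0 to 7 reads in a library.

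Of the 11 genes of selenocysteine synthesis and insertion, 2 were called lower in Input, against 6.02% of all genes, and 1 in Polysome, against 4%. SCLY, which releases selenium from selenocysteine, fell by 0.55 on the log2 scale in Input (SE 0.17, adjusted p = 0.0106) and fell by 0.90 in Polysome (SE 0.19, adjusted p = 0.0195). ALKBH8, which modifies the wobble base of the selenocysteine tRNA, fell by 0.67 in Input (SE 0.18, adjusted p = 0.00334). SECISBP2 had a log2 FC of 0.07 in Input and 0.22 in Polysome, and EEFSEC of 0.01 and 0.06, none of which passed the adjusted p. The tRNA-associated factor TRNAU1AP was at -0.30 in Input (adjusted p = 0.000968) and -0.51 in Polysome (adjusted p = 0.0819). SARS1, the seryl-tRNA synthetase, was at 0.33 in Input (adjusted p = 0.000126). In loading, SARS1 was called lower in both treatments (-0.89 in Ctrl, -0.94 in siRNAG5), and SEPHS1, the paralog of SEPHS2 without selenocysteine, lower in Ctrl (-0.65). SECISBP2L (1.28 and 1.89) and ALKBH8 (1.11 and 1.54) were called higher in both. These 2 genes were low in Input. SECISBP2L had means of 1.41 CPM in Ctrl and 0.895 CPM in siRNAG5, with 63 reads over the 4 Input libraries of each. ALKBH8 had means of 5.55 and 3.42 CPM. SECISBP2 was called higher in siRNAG5 (0.67). In Ctrl loading that made 2 of 11 lower (background 18.8%) and 2 of 11 higher (background 20.8%). In siRNAG5 loading it made 1 of 11 lower (background 21.2%) and 3 of 11 higher (background 23.9%).

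Lists of genes that work with the members were small. Of 13 genes of the thioredoxin, glutathione and peroxiredoxin systems, 3 fell in Input (6.02% of all genes), PRDX4 (-0.60), GCLM (-0.56) and PRDX1 (-0.52), 0 were higher in Input by edgeR, and 10 were not called. In Ctrl loading GSS was called lower (1 of 13, background 18.8%) and GSR higher (1 of 13, background 20.8%). In siRNAG5 loading GSS was lower (1 of 13, background 21.2%), and GSR, GCLC and GCLM were higher (3 of 13, background 23.9%). Of 8 genes of protein retrotranslocation and palmitoylation that work with SELENOS and SELENOK, UBXN8 fell in Input (-0.74, 1 of 8 against 6.02%) and Polysome (-0.68, 1 of 8 against 4%), and the other seven were not called in either. In Ctrl loading DERL1, DERL2, VCP, SYVN1 and UBXN8 were called lower (5 of 8, background 18.8%) and SEL1L higher (1 of 8, background 20.8%). In siRNAG5 loading DERL1, VCP and SYVN1 were called lower (3 of 8, background 21.2%). The 4 tested paralogs of selenoproteins that carry another residue in place of selenocysteine were GPX8, MSRB2, MSRB3 and SEPHS1. After silencing edgeR called 0 of 4 in Input (background 6.02% lower and 10.5% higher). In Polysome it called 0 of 4 as well (background 4% lower and 3.95% higher). Their log2 FC ran from -0.26 to 0.10 in Input and from -0.17 to 0.25 in Polysome. A list of 4 genes is too small to tell a count of 0 from these backgrounds. Among 3 other proteins known to bind SECIS elements, RPL30 had a loading of -1.03 in Ctrl and -1.80 in siRNAG5 and EIF4A3 of -1.08 and -1.30, all called lower, and NCL was called lower in siRNAG5 (-0.64). That was 2 of 3 in Ctrl (background 18.8%) and 3 of 3 in siRNAG5 (background 21.2%). After silencing edgeR called 0 of the 3 in Input (background 6.02% lower, 10.5% higher) and 0 in Polysome (background 4% lower, 3.95% higher). In Polysome RPL30 was at -0.82 (adjusted p = 0.0731), NCL at -0.69 (adjusted p = 0.177) and EIF4A3 at -0.59 (adjusted p = 0.331). In Input NCL (-0.41, adjusted p = 1.69e-05) and EIF4A3 (-0.32, adjusted p = 0.000196) passed the adjusted p but not the limit on size. RPL30 was at -0.01 there.

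Over the 16 libraries, with each gene centred within its fraction, the pattern of GPX4 was most like those of GUK1 (r = 0.995), PSMG3 (r = 0.994) and OST4 (r = 0.993), and that of GPX1 most like those of NDUFAF8 (r = 0.993), TIMM8B (r = 0.992) and its own pseudogene GPX1P1 (r = 0.990). SELENOS was most like SFXN4 (r = 0.991), SELENOK most like CINP (r = 0.986), SELENOT most like KRT10-AS1 (r = 0.977), SELENOH most like ZSCAN16-AS1 (r = 0.973) and SELENOW most like TMEM134 (r = 0.968). TXNRD1 was most like NLN (r = 0.957), SEPHS2 most like THOC3 (r = 0.955) and TXNRD2 most like CCDC22 (r = 0.924). Among the 45 pairs of members the median r was 0.72, the highest was between GPX1 and GPX4 (r = 0.976), the next partner of SELENOS was SELENOK (r = 0.957), and the lowest was between TXNRD2 and SELENOW (r = -0.53). These are descriptions over libraries that share treatment and the division of the Polysome libraries.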

How the data were processed

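Starting from stranded libraries of polyadenylated RNA, the authors aligned reads to GRCh38 of Ensembl release 91 with STAR 2.5.3a, used QoRTs to quantify genes, and deposited whole-number read counts without normalization, 1 column per library. Reads not assigned to 1 gene were listed by them separately and were left out. GENCODE v44 named 57532 of the 58302 identifiers and gave transcripts and coordinates. Groups and replicate numbers came from the labels. Counts were tested in edgeR 4.0.16 (R 4.3.3) with filterByExpr, TMM scaling and the quasi-likelihood test, each comparison on its own 8 libraries and the loading difference on all 16. Called means an adjusted p (Benjamini-Hochberg over all genes tested) under 0.05 with a log2 FC beyond 0.5. SE is the size of the log2 FC divided by the root of the F statistic. CPM per kb uses the canonical transcript.

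The members and gene lists were chosen with earlier results of these data known. All members and GEMIN5 are named. So are genes called in the other lists, apart from the liver and HEK293 marker genes and the receptors of SELENOP. Some uncalled genes for selenocysteine proteins or its insertion are named, and for likeness the closest genes by Pearson r. The cysteine paralogs without a call were named after their values were seen. Alternatives were DESeq2 1.42.0, no adjustment of p, RLE size factors, no filter, a replicate block, GC and length offsets, a joint fit of 16 libraries, and libraries left out. The set of 3 Polysome libraries was picked by principal component scores of these data, and its use as a term was chosen after seeing the data. The scripts were tested on simulated counts. On the same strand TXNRD1 overlaps EID3 and RPL18AP3, and GPX1 and SELENOH overlap unnamed loci, so some of their reads can be lost. Python 3.11.15, pandas 2.3.3, numpy 2.4.6 and matplotlib 3.10.9 made tables and figures.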

Additional observations from a re-analysis of the deposited data

Results flagged for a closer look

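In 2 of 40 groups of 4 values (10 members in 4 groups), 1 library lay far from the other three, its gap to the nearest being large against the whole range. Chance gives such a gap in about 1 in 20 groups. TXNRD1 was at 34.9 CPM in Input Ctrl 3, where the other libraries lay between 40.9 and 41.5 CPM, and its log2 FC in Input was -0.53 without that library and -0.47 with it. SEPHS2 was at 302 CPM in Polysome siRNAG5 4, where the others lay between 253 and 260.0 CPM.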

How the results depend on the processing

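Input silencing called 2 members lower under every alternative other than leaving out 1 library (1 to 3 members, 696 to 956 of all genes). With GC and length offsets the 2 called in Input silencing were GPX1 and TXNRD1 (-0.50) in place of GPX1 and SELENOS. Its near-zero values turned sign: TXNRD2 was -0.0034 with DESeq2, -0.0035 with RLE size factors, -0.0054 with all 16 libraries in one fit, -0.045 with GC and length offsets and -0.063 to 0.052 with 1 library left out, and SELENOH was 0.0052 with the offsets. With the offsets SELENOS was at -0.39 in both fractions and lost both calls. Polysome silencing moved most. It called 4 members lower with the unadjusted p, DESeq2 or all 16 libraries, 3 without the filter and 2 with the offsets. With the set of 3 libraries as a term it called 5, without these libraries 6, and with 1 library left out 0 to 3. Apart from the fits with 1 library left out, GPX1 and GPX4 were among the members called in each of these. With the offsets in edgeR they were at -0.89 (adjusted p = 0.00978) and -0.75 (adjusted p = 0.0198). Over all genes, 577 were called lower there, against 1343 with the unadjusted p, 1101 with DESeq2, 941 without the filter, 1520 with all 16 libraries, 897 with the offsets, 1734 with the set as a term, 1788 without the 3 libraries and 113 to 836 with 1 library left out. The 569 called higher became 1599 with the unadjusted p, 1077 with all 16 libraries, 1748 with the set as a term, 1327 without the 3 libraries and 76 to 687 with 1 left out. SELENOW in Polysome was -0.0012 with DESeq2, -0.0016 with RLE size factors, -0.010 with all 16 libraries, -0.39 with the set as a term, -0.65 without the 3 libraries and -0.25 to 0.28 with 1 left out, and TXNRD1 was 0.035 without the 3 libraries. Members called lower in Ctrl loading numbered 2 with the offsets (background 18.8%) and 7 without Polysome Ctrl 1 (background 19.8%). With 1 library left out they numbered 3 to 7, and 2309 to 2752 of all genes were called lower. In siRNAG5 loading 3 members were called lower with the offsets (background 21.8%) and 4 to 7 with 1 left out, where 2791 to 3282 of all genes were. For the difference in loading, 1 member was called lower with the set as a term and 4 without the 3 libraries. Over all genes 0 were called lower, against 517 with the unadjusted p, 11 with DESeq2, 29 without the filter, 3 with the offsets, 297 with the set as a term, 659 without the 3 libraries and 0 to 1 with 1 left out, and 0 higher, against 272, 18, 28, 1, 95 and 106 in the same order. SELENOW was then -0.26 with the set as a term, -0.53 without the 3 libraries and -0.13 to 0.42 with 1 left out. SELENOT was -0.12 with the offsets, -0.052 with the set as a term, -0.062 without the 3 libraries and -0.020 to 0.23 with 1 left out, and SEPHS2 was -0.022 with the set as a term and -0.051 to 0.084 with 1 left out. The study took Input and Polysome RNA from individual lysates, but the labels do not say that a shared number marks a shared lysate. Deviations of same-numbered Input and Polysome libraries correlated at -0.07 to 0.19 in Ctrl and -0.21 to 0.22 in siRNAG5, 2 of 4 over 0.1 in each. Between treatments they correlated at -0.53 to 0.48 in Polysome and -0.03 to 0.07 in Input, and the numbers were not taken as pairs there. With the replicate block GPX1 in Polysome was at -1.15 and called (adjusted p = 0.0380), SELENOS at -0.59 and not called (adjusted p = 0.0563), SELENOW at -0.12, and GPX1 in Ctrl loading at -0.53 and called. It changed no other call of a member, nor did a block of treatment and number for the difference in loading. The cause of these shifts was not tested.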
